A study of Homo sapiens with 12 samples.

Results

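The HOX cluster genes were described across all 6 groups of the series: every protein-coding gene whose symbol is HOXA, HOXB, HOXC or HOXD followed by a number. The human genome holds 39 of them. The deposited table lists transcripts of 34, which were summed per symbol, and 32 of these 34 passed the filter on low counts among 16538 genes tested of 24559 symbols in all. HOXD9 and HOXD13 were listed but did not reach the filter, and HOXB1, HOXD1, HOXD10, HOXD11 and HOXD12 were not analysed here.

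HOX genes encode homeodomain transcription factors that give cells along the body axis and the limbs their positional identity. They lie in 4 clusters, and within a cluster the genes are numbered from the end used early and towards the head (low paralog numbers) to the end used late and towards the tail (high numbers). Adult cells and the lines made from them often keep the HOX code of their origin, with Polycomb proteins holding unused stretches silent and Trithorax proteins keeping used ones active. HOX proteins bind DNA together with TALE cofactors, the PBX, MEIS and PKNOX proteins.

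In GRCh38 with the GENCODE 44 annotation, HOXA lies on chromosome 7 on the minus strand with 11 genes, all of them listed. HOXB spans chr17:48528526-48728750 on the minus strand with 10 genes, of which 9 were listed. HOXC spans chr12:53938831-54056030 on the plus strand with 9 genes, all listed, and HOXD spans chr2:176092721-176190907 on the plus strand with 9 genes, of which 5 were listed. Several HOX genes overlap: HOXA3, HOXB3, HOXC6 and HOXC4 each have long transcripts that run past their neighbours, so reads in shared exons were divided among genes by the authors' estimate.

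The study asked what happens to translated mRNA in triple-negative breast cancer (TNBC) lines when TRMT112, a small partner protein that several RNA and protein methyltransferases need, is lowered or raised. Each group had 2 libraries of RNA taken from the polysome part of a sucrose gradient, 12 libraries in all. MDA-MB-231 and SUM159 carried a TRMT112 shRNA in the GIPZ vector (KD) or, as the control labelled EV, the same vector with a non-silencing shRNA, under puromycin. BT549 carried a TRMT112 open reading frame in pReceiver-M02 (OE) or that vector alone (EV), under G418. All constructs were transfected, and the number of clones kept is not given in the sources used here. MDA-MB-231 grew in DMEM/F-12, SUM159 in the same medium with insulin and hydrocortisone, and BT549 in an RPMI medium, so cell line, medium, vector and selection cannot be told apart when lines are compared. Nothing states that the libraries of a group came from separate cultures, so p-values measure the spread between these libraries. A polysome count rises with the amount of an mRNA and with the ribosomes on it, and these cannot be told apart without total RNA. Library preparation is described as poly(A) selection in the labels and as stranded total RNA after rRNA depletion in the methods, and since the strand setting of the counting is not given, reads of a HOX gene and of an antisense RNA over it cannot be told apart.

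Totals ran from 22954226 to 27434677 expected counts per library, and in no group did the libraries agree within counting noise (mean chi-square per gene 2.14 to 3.05, where 1 is counting noise). TRMT112 itself followed the labels: its mean normalized count was 4042 in MDA-MB-231 EV and 1723 in KD, 6449 and 3804 in SUM159 EV and KD, and 3081 and 4303 in BT549 EV and OE. Of the markers, VIM, a mesenchymal gene, lay between 596.5 and 1866 TPM (transcript counts per length, scaled to the same sum in every library) in the 6 groups, PGR had 0 to 9 counts per library, and ERBB2 had 27.3 to 54.4 TPM. VIM was at 1665 TPM in BT549 EV and 596.5 in OE. FN1, ZEB1 and SPARC, other mesenchymal genes, were at 19.3, 31.7 and 359.9 TPM in BT549 EV and 10.6, 12.6 and 1264 in OE. SPARC thus went the other way. In MDA-MB-231 EV FN1 and SPARC were at 7.72 and 8.59 TPM. EPCAM and CDH1, which mark epithelium, were at no more than 3.94 TPM. The epithelial keratins KRT8 and KRT18 were at 207.5 to 558.6 TPM in MDA-MB-231 and SUM159 but at 4 to 16 counts per library in BT549. Of markers of other cell types, PTPRC, MLANA and ALB had at most 16 counts per library, PECAM1 had a mean of 24.7 normalized counts in SUM159 EV and 95.8 in KD, CDH5 had 15.8 in MDA-MB-231 EV and 88.2 in KD, and ESR1 and CD3E were not analysed here. The part of these marker shifts in the HOX results was not tested.

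The HOXA cluster held genes that were at 0 in BT549 EV and present in OE, and 4 of its promoters are printed here because their genes stand for its kinds of behaviour. HOXA2 and HOXA6 were at 0 in BT549 EV and present in OE, HOXA9 was present in EV and higher in OE, and HOXA13 was lower in OE. Each sequence is the 250 bases before the RefSeq gene start (GRCh38.p14), written 5′ to 3′ on the minus strand, with CG dinucleotides, the sites of DNA methylation, in capitals. They lie at chr7:27102684-27102933 (HOXA2), chr7:27147775-27148024 (HOXA6), chr7:27165538-27165787 (HOXA9) and chr7:27200092-27200341 (HOXA13).
HOXA2: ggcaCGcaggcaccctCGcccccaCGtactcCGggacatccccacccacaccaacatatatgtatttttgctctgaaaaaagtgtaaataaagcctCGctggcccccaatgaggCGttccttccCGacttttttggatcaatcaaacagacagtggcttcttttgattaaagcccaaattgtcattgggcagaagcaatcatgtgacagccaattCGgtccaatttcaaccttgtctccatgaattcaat
HOXA6: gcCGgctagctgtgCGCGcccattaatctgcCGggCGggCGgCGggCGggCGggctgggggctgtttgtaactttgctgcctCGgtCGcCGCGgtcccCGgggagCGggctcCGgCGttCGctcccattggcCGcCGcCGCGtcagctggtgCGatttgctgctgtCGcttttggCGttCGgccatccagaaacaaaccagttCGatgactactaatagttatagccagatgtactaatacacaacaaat
HOXA9: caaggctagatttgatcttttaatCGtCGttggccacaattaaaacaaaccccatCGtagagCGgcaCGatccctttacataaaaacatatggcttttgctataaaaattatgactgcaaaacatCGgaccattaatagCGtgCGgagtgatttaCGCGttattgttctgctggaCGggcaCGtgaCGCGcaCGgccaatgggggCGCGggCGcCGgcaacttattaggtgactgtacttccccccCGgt
HOXA13: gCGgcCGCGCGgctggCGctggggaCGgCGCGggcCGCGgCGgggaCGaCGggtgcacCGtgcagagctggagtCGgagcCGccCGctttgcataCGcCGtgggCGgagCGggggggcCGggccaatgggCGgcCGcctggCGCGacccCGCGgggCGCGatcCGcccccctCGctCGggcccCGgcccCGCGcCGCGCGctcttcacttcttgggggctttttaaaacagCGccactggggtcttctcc
The windows hold 8, 27, 20 and 40 CG dinucleotides in the order printed. The median over 35116 RefSeq promoter windows of this length was 11, and over the 27 windows of the 20 HOX genes that the table holds it was 19. At least 20 CG dinucleotides stood in 13 of those 27 windows, or 48.1%, against 32.4% of all windows. HOXA3 has several of the 27 windows, HOXC4 and HOXC5 share the same one, and most lie in HOXA or HOXD. They thus do not stand evenly for the HOX genes. Methylation was not analysed here, and a link between CG content and the changes in OE was not tested.

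The control libraries had 3 different HOX codes. The sum of HOX levels was 193.3 and 194.2 TPM in MDA-MB-231 EV, 216.1 and 213.9 in SUM159 EV, and 458 and 466.6 in BT549 EV. MDA-MB-231 used mostly HOXB (84 and 85.6% of its HOX TPM) with some HOXD, SUM159 used mostly HOXC (87.7 and 88.2%) with part of HOXA, and BT549 used HOXC (57.2 and 56.2%) and HOXB (38.7 and 39.8%) together. With over 3 counts in both libraries as the mark of detection, 15 of the 34 genes were detected in MDA-MB-231 EV, 20 in SUM159 EV and 21 in BT549 EV. The 7 members detected in all 3 lines were HOXA13, HOXB7, HOXC4, HOXC5, HOXC6, HOXC8 and HOXC9. The deposited table holds no transcript whose estimate is exactly 0 in all 4 BT549 libraries. Transcripts used only in the other lines can thus be missing from it. Sums, shares, detected genes and calls between lines can therefore lean towards BT549.

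**Figure D1:**
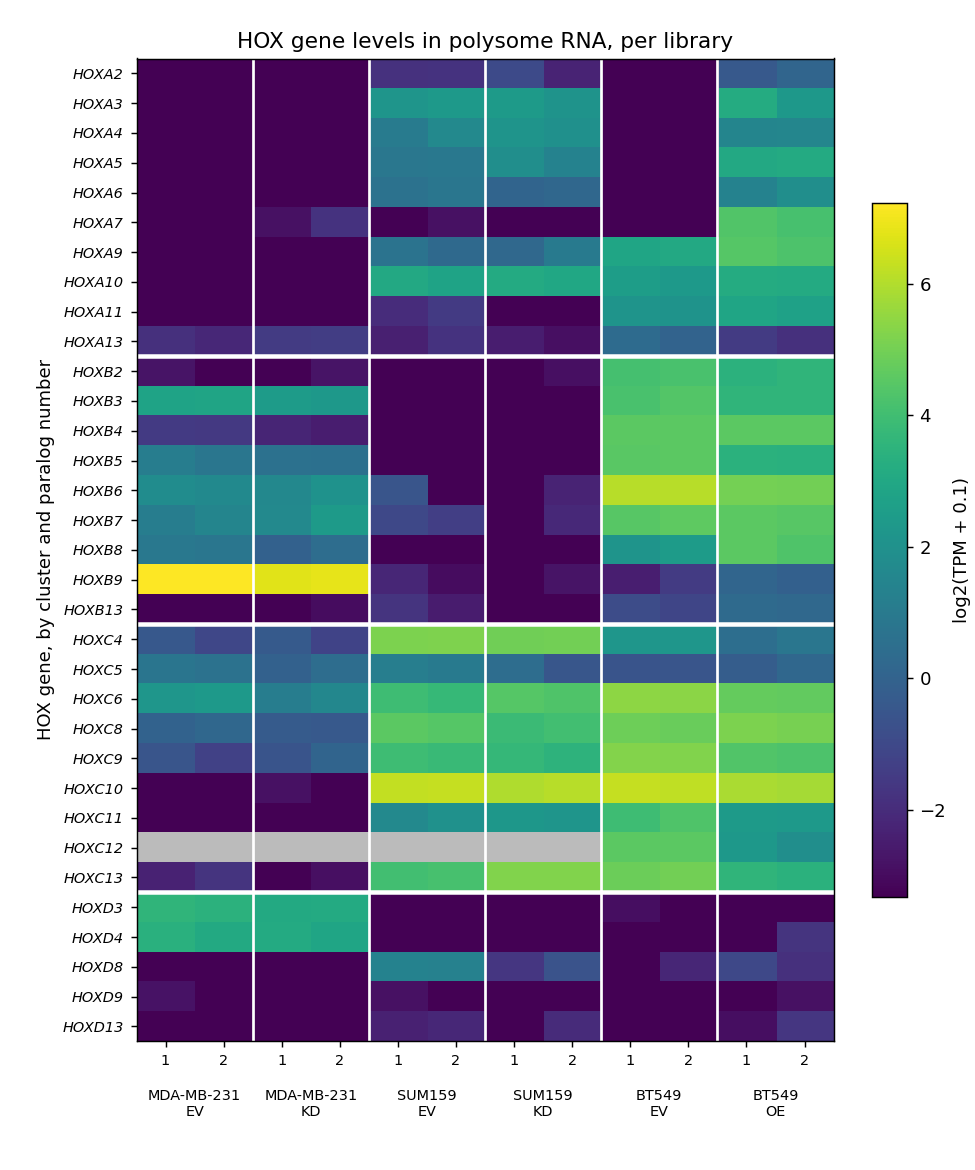
Levels of the listed HOX genes reported here (rows, by cluster and paralog number) in the 12 libraries (columns, 2 per group), as log2(TPM + 0.1). HOXB9 is the brightest row in MDA-MB-231, HOXC10 in SUM159 and BT549, and the rows from HOXA2 to HOXA7 are dark in BT549 EV and lit in OE; grey marks HOXC12 where the table has a missing mark and no number.

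Genes were called at an adjusted p under 0.05 in edgeR's quasi-likelihood test with Benjamini-Hochberg adjustment over all genes tested. MDA-MB-231 EV was higher than SUM159 EV in 9 HOX genes and lower in 18 of the 32, where 36.4% of all genes tested were called higher and 39.2% lower. BT549 EV was higher than MDA-MB-231 EV in 20 and lower in 4, against 39.1 and 40.4% of all genes. BT549 EV was higher than SUM159 EV in 18 and lower in 10, against 37.7 and 40.7%. The HOX share called lay above the background for genes lower in MDA-MB-231 than in SUM159 and for genes higher in BT549. Of the 32 genes, 3 had at most 3 counts in both groups of the first and of the third comparison and 8 in those of the second, and these were not called. The median log2 difference of the 32 genes was -1.03 for MDA-MB-231 against SUM159, 3.18 for BT549 against MDA-MB-231 and 1.19 for BT549 against SUM159 when genes absent from a group were set at 3 counts, beside -0.03, -0.03 and -0.06 over all genes. The control groups enter more than 1 of these comparisons, so the counts are not independent of each other. Some genes passed the filter on low counts only through the line where they were high, so their calls are not independent of that filter. These were HOXD3 and HOXD4 in MDA-MB-231, HOXD8 in SUM159, and HOXA11, HOXB2, HOXB4, HOXB13 and HOXC12 in BT549.

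In MDA-MB-231 a single gene carried most of the HOX signal. HOXB9, a posterior HOXB gene active in trunk and mammary development, was at 145.7 and 149.9 TPM in the EV libraries, or 76.3% of all HOX TPM, while the next gene, HOXD3, was at 11.9 and 11. As normalized counts HOXB9 was 4383 and 4504 in MDA-MB-231 EV, 4.04 and 1.01 in SUM159 EV, and 3.28 and 9.97 in BT549 EV, so that the lowest MDA-MB-231 library stood far above every library of the other lines. It was 1681-fold higher than in SUM159 (log2 10.72 ± 0.14 SE, adjusted p = 1.64e-25) and 660.1-fold higher than in BT549 (adjusted p = 1.43e-25), with edgeR's quasi-likelihood test.

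Around HOXB9 the rest of the cluster was weak in MDA-MB-231. HOXB3 had 198.5 and 192.7 normalized counts, HOXB6 69.6 and 67.6, and HOXB5, HOXB7 and HOXB8 had means of 41.3, 27.8 and 38.4. HOXB4 reached 5.64 and 5.48, and HOXB2 had 1 and 0 counts. Counts along the cluster did not run evenly from one end to the other. Levels of different genes compare only per length: HOXB3 was at 6.93 TPM, HOXB6 at 3.27, HOXB7 at 2.41, HOXB5 at 1.91 and HOXB8 at 1.72, and the libraries of HOXB5 and HOXB8 overlapped while those of HOXB7 and HOXB5 all but touched.

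MDA-MB-231 was also the line with HOXD3 and HOXD4, anterior genes of the HOXD cluster. HOXD3 had 319.9 and 295.9 normalized counts in MDA-MB-231 EV, 0 in both SUM159 EV libraries, and 1.09 and 0 in BT549 EV. HOXD4 had 136.4 and 111.4 in MDA-MB-231 EV and 0 in all 4 control libraries of the other lines. The groups did not overlap, and HOXD3 was at least 101.7-fold and HOXD4 at least 40.9-fold higher than in SUM159, both computed against 3 counts in each SUM159 library (adjusted p = 2.63e-14 and 4.24e-10). Both genes passed the filter on low counts only through MDA-MB-231 libraries, so these calls are not independent of that filter. The table lists 3 of the 5 annotated HOXD3 transcripts, and since it holds no transcript whose estimate is exactly 0 in all 4 BT549 libraries, the MDA-MB-231 value of HOXD3 can be too low. HOXA was nearly silent in this line: 10 of 11 genes were at 0 in both EV libraries, and HOXA13 had 11 and 8 counts.

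In SUM159 the HOXC cluster took the place that HOXB had in MDA-MB-231. HOXC10, a posterior gene tied to hindlimb and lower trunk, led with 77.6 and 78.7 TPM in the EV libraries, followed by HOXC4, an anterior gene of the same cluster, with 35.8 and 36.5, and HOXC8 with 23.4 and 22. HOXC13, HOXC9 and HOXC6 came next at 17.1, 14.9 and 14.5 TPM on average. The libraries of HOXC9 and HOXC6 overlapped, so the order of this pair is not firm. HOXC10 was 0 in both MDA-MB-231 EV libraries against 1508 and 1547 normalized counts in SUM159 EV, at least 541.2-fold higher in SUM159 (adjusted p = 1.38e-22). HOXC4 was 801.4 and 824.3 in SUM159 EV against 12.2 and 7.31 in MDA-MB-231 EV and 102.9 and 105.2 in BT549 EV, 82.5-fold and 7.8-fold higher in SUM159 (adjusted p = 1.25e-19 and 1.23e-16).

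SUM159 was the control group with anterior HOXA genes. Over 3 counts in both its libraries, and not so in either other line, were among others the genes from HOXA2 to HOXA6 and HOXD8. HOXA3 had 140.3 and 123.7 normalized counts. HOXA10, which patterns the uterus and the lower trunk, was the strongest HOXA gene with 209.9 and 194, while HOXA7 had 0 and 1 count. Of the 11 HOXA genes, 9 were called lower in MDA-MB-231 than in SUM159, and at none of these did the libraries overlap. HOXD8 had 62.6 and 63.3 in SUM159 EV and 0 in both MDA-MB-231 libraries, at least 22.3-fold lower there (adjusted p = 2.50e-07). That call is not independent of the filter on low counts, which HOXD8 passed only through the SUM159 EV libraries. HOXB was near silence in SUM159: 5 of its 9 listed genes were at 0 in both EV libraries, and HOXB7 was the one with over 3 counts in each (7 and 5).

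BT549 EV held HOXB and HOXC together and at the highest summed level of the listed transcripts. HOXC10 led with 78.1 and 75 TPM, beside 77.6 and 78.7 in SUM159 EV, and HOXB6 followed with 68.5 and 68.9. As normalized counts, however, HOXC10 had a mean of 2031 in BT549 EV and 1528 in SUM159 EV. It was called higher in BT549 (log2 0.41 ± 0.06, adjusted p = 7.08e-07). HOXC6, HOXC9, HOXC13 and HOXC8 lay at 42.2, 38.2, 30.3 and 28.9 TPM on average, and of these HOXC13 and HOXC8 overlapped. HOXB2, a hindbrain gene, had 442.4 and 465.1 normalized counts in BT549 EV, 0.941 and 0 in MDA-MB-231 EV and 0 in SUM159 EV, at least 149.8-fold higher than in SUM159 (adjusted p = 4.86e-16). HOXB4, which marks blood stem cells among other tissues, had 717.2 and 724.2 in BT549 EV, 5.64 and 5.48 in MDA-MB-231 EV and 0 in SUM159 EV. Calls on HOXB2 and HOXB4 are not independent of the filter on low counts, which both passed only through BT549 libraries. HOXB6 had 1824 and 1800 in BT549 EV, 26.4-fold more than the MDA-MB-231 mean of 68.6 (adjusted p = 3.56e-20). HOXB8 had 115 and 120.7, 3.06-fold above MDA-MB-231. All 8 called HOXB genes other than HOXB9 were higher in BT549 than in MDA-MB-231.

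At the posterior end BT549 EV expressed HOXC11, HOXC12 and HOXC13, genes of the tail and distal limb. HOXC13, also known for its role in hair and nails, had 1041 and 1134 normalized counts in BT549 EV, 511.7 and 563 in SUM159 EV and 2.82 and 5.48 in MDA-MB-231 EV. It was 2.02-fold higher in BT549 than in SUM159 (adjusted p = 6.21e-11). HOXC11 had 620.8 and 750.8 in BT549 EV, 98.9 and 125.7 in SUM159 EV and 0 in MDA-MB-231 EV, 6.1-fold higher in BT549 than in SUM159 (adjusted p = 2.14e-13). HOXC12 had 1193 and 1160 in BT549 EV, but its 1 transcript carries a missing mark in all 8 libraries of the other lines, so its absence there rests on reading the mark as 0. Of the 191678 unmarked transcripts, 0 had an estimate of exactly 0 in all 8 of those libraries, though many estimates lie far under 1 count.

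HOXA in BT549 EV was split at one point along the cluster. The 6 genes from HOXA2 to HOXA7 were at 0 in both libraries, and the 4 from HOXA9 to HOXA13 were present. HOXA9 had 134.7 and 167.2 normalized counts, HOXA10 154.4 and 143.9, HOXA11 163.1 and 156.1, and HOXA13 83.2 and 55.4. HOXA11, a limb and uterus gene, was 25.9-fold higher than in SUM159 (adjusted p = 3.96e-11), HOXA9 9.3-fold higher (adjusted p = 1.99e-10) and HOXA13 7.16-fold higher (adjusted p = 1.12e-05), while HOXA10 was lower by 0.44 ± 0.15 on the log2 scale (adjusted p = 0.013). That call on HOXA10 was lost without the first SUM159 EV library (adjusted p = 0.0761) or the second BT549 EV library (adjusted p = 0.0745). HOXB13, a prostate and tail gene, had 20.8 and 16.6 in BT549 EV against 8.07 and 3.02 in SUM159 EV (adjusted p = 0.0239), and its call was lost without the second SUM159 EV library (adjusted p = 0.195) or the first BT549 EV library (adjusted p = 0.108). HOXD was close to nothing in this line, with at most 2 counts per gene and EV library.

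The lines differed in which HOXC4 transcript was assigned the reads. HOXC4-202, which starts at 54053835 on chromosome 12, held 93.6 and 91.3% of the HOXC4 counts in SUM159 EV and 82.2 and 87.3% in KD. HOXC4-201, which starts upstream at 54016931 between HOXC8 and HOXC5, held 70.4 and 62% in BT549 EV, and 46.4 and 71.5% in OE. The SUM159 and BT549 libraries did not overlap in these shares, while BT549 EV and OE did. In MDA-MB-231 the gene had 7 to 16 counts per library, too few for shares. The shares are the authors' estimates of how shared reads divide, and no test was made on them.

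**Figure D2:**
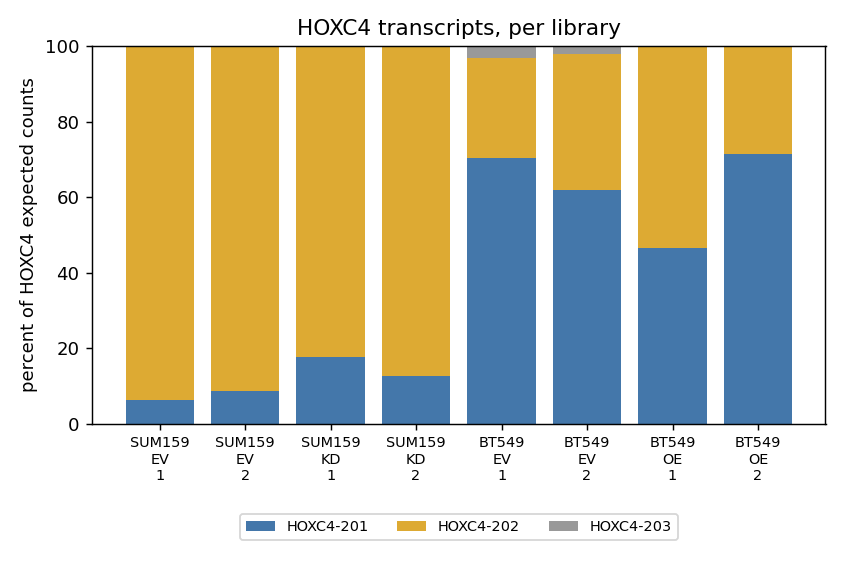
Share of HOXC4 expected counts (percent, stacked bars starting at 0) assigned to each of its 3 transcripts in the SUM159 and BT549 libraries. HOXC4-202 fills 82.2 to 93.6% of every SUM159 bar, and HOXC4-201 fills 46.4 to 71.5% of every BT549 bar.

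Noncoding genes inside the clusters also differed between the lines. HAGLR, the antisense RNA beside HOXD1 and HOXD3, had 715 and 685.8 normalized counts in MDA-MB-231 EV, 8.07 and 1.01 in SUM159 EV and 0 in BT549 EV. HOTAIR, the RNA transcribed between HOXC11 and HOXC12, had 418.3 and 426.3 in BT549 EV, 33.3 and 40.2 in SUM159 EV and 0 in MDA-MB-231 EV. HOTAIRM1, a noncoding gene of the HOXA cluster, had 128.2 and 141.7 in SUM159 EV and 0 in the EV libraries of both other lines. Of 13 such genes tested, 1 was called higher and 9 lower in MDA-MB-231 than in SUM159, 9 higher and 1 lower in BT549 than in MDA-MB-231, and 6 higher and 5 lower in BT549 than in SUM159. The shares over all genes were 36.4 and 39.2%, 39.1 and 40.4%, and 37.7 and 40.7%. HAGLR passed the filter on low counts only through MDA-MB-231 libraries. HOXA11-AS, HOXB-AS1, HOXB-AS3 and HOXC-AS3 passed it only through BT549 libraries, so calls on these genes are not independent of it.

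With the knockdown in MDA-MB-231, the main HOX gene of the line came down a little. Of 32 HOX genes tested 2 were called higher and 4 lower, where 21.2% of all genes were called higher and 16.5% lower. Of the 32, 15 had at most 3 counts in every MDA-MB-231 library, and were not called, so the HOX share is not read against the background. HOXB9 fell from 4383 and 4504 normalized counts in EV to 3518 and 3598 in KD, without overlap (log2 -0.32 ± 0.05 SE, adjusted p = 1.48e-05). HOXC6, a thoracic gene, fell from 113.8 and 126 to 59 and 63.6, also without overlap (log2 -0.97 ± 0.14, adjusted p = 8.45e-06). These were the best supported changes in this line. HOX levels summed to 193.3 and 194.2 TPM in EV and to 145.5 and 152.5 in KD. Ranked by TPM, the 34 genes had a Spearman rho of 0.94 between the EV and KD means, a description over genes that share libraries and depth, many of them at 0 in both groups.

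The other calls in MDA-MB-231 KD rested on few counts. HOXB7 had 24.5 and 31 normalized counts in EV and 44 and 52 in KD (log2 0.79 ± 0.25, adjusted p = 0.0158), a call lost without the first EV library (adjusted p = 0.134) or the second KD library (adjusted p = 0.117). HOXB8 had 34.8 and 42 in EV and 15.9 and 26 in KD (log2 -0.87 ± 0.29, adjusted p = 0.0213), lost without the second EV library (adjusted p = 0.143) or the first KD library (adjusted p = 0.234). These 2 neighbouring genes thus went in opposite directions, neither beyond the loss of 1 library. HOXA7 was called higher from counts of 0 and 0 to 1 and 5 (adjusted p = 0.0378), lost without either EV library (adjusted p = 0.127 and 0.133) or the second KD library (adjusted p = 0.312). HOXC13 was called lower from 3 and 6 counts to 0 and 1 (adjusted p = 0.0457), lost without the second EV library or the first KD library (adjusted p = 0.256 for each), without the second KD library (adjusted p = 0.0544) and without either SUM159 KD library (adjusted p = 0.053 and 0.0523), and the fitted change of these last 2 genes depends on the prior count.

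HOXD3 and HOXD4, which among the lines MDA-MB-231 expressed, were not called. HOXD3 had 319.9 and 295.9 normalized counts in EV and 242.6 and 242.8 in KD (log2 -0.34 ± 0.16, adjusted p = 0.0969). It was called lower with library size scaling (adjusted p = 0.0348) and with the cell line fitted alone (adjusted p = 0.00662). HOXD4 had 136.4 and 111.4 in EV and 122.7 and 103.1 in KD, with overlapping libraries (log2 -0.13 ± 0.28, adjusted p = 0.77). HAGLR, transcribed beside them, fell from 715 and 685.8 to 494.6 and 494.2 (log2 -0.50 ± 0.13, adjusted p = 0.00298) and was the 1 noncoding cluster gene called of 13. Over all genes 21.2% were called higher and 16.5% lower. HOXB3 had 198.5 and 192.7 in EV and 187.4 and 166.7 in KD (log2 -0.14 ± 0.12, adjusted p = 0.408).

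In SUM159 KD genes of the HOXC cluster changed in both directions. Of 32 HOX genes 4 were called higher and 7 lower, where 28.6% of all genes were called higher and 31.4% lower, and 9 of the 32 had at most 3 counts in every SUM159 library and were not called. HOXC13 rose from 511.7 and 563 normalized counts in EV to 1281 and 1275 in KD, 2.38-fold (log2 1.25 ± 0.08, adjusted p = 2.27e-12), and its TPM passed that of HOXC4. HOXC11 rose from 98.9 and 125.7 to 158.3 and 162.6 (log2 0.51 ± 0.16, adjusted p = 0.00864), a call lost without the first EV library (adjusted p = 0.13). HOXC6, in the middle of the cluster, rose from 409.8 and 397.1 to 631.1 and 626.2 (log2 0.64 ± 0.08, adjusted p = 1.14e-07).

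Other HOXC genes of SUM159 were lower or not called. HOXC10, the leading gene, fell from 1508 and 1547 to 1204 and 1318 normalized counts (log2 -0.27 ± 0.06, adjusted p = 0.000277). HOXC8 fell from 747.9 and 713.8 to 519.2 and 576 (log2 -0.41 ± 0.08, adjusted p = 4.44e-05). HOXC4 had 801.4 and 824.3 in EV and 754.1 and 760.2 in KD (log2 -0.10 ± 0.09, adjusted p = 0.348), and HOXC9 had 281.6 and 284.5 in EV and 275.2 and 237.8 in KD (log2 -0.15 ± 0.11, adjusted p = 0.274). HOXC5 was called lower on fewer counts. The summed HOX level was 216.1 and 213.9 TPM in EV and 213.1 and 214.8 in KD, and the Spearman rho between the EV and KD profiles was 0.94 over 34 genes.

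Outside HOXC, the smallest adjusted p in SUM159 KD was at HOXD8. This gene passed the filter on low counts only through the SUM159 EV libraries, so its call is not independent of that filter. HOXD8 fell from 62.6 and 63.3 normalized counts to 6.05 and 13 (log2 -2.69 ± 0.56, adjusted p = 0.000298), 6.45-fold lower. HOXA5, which acts in lung development, rose from 38.4 and 39.2 to 87.7 and 59.7 (log2 0.92 ± 0.28, adjusted p = 0.00853), a call lost without the first KD library (adjusted p = 0.134). HOXA4 next to it was not called in the fit of all libraries, with 45.4 and 55.3 in EV and 84.7 and 80.4 in KD (log2 0.71 ± 0.32, adjusted p = 0.062). It was called without the first or the second BT549 EV library (adjusted p = 0.0479 and 0.0474). HOXA4 was also called with RLE scaling (adjusted p = 0.0456) and with the cell line fitted alone (adjusted p = 0.011). HOXA3 was not called either, and had 140.3 and 123.7 in EV and 146.2 and 135.8 in KD. HOXA11, HOXB7 and HOXB13 were called lower from at most 8 counts per library in EV to at most 3 in KD. The HOXB7 call was lost without the first EV library (adjusted p = 0.145) or the first KD library (adjusted p = 0.238), and that of HOXB13 without the first EV library (adjusted p = 0.0564).

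A pair of noncoding genes of the HOXC cluster were higher in SUM159 KD beside HOXC13 and HOXC11. They were the 2 called higher of 13 noncoding cluster genes tested, with 0 called lower. Over all genes 28.6% were called higher and 31.4% lower. HOXC13-AS, antisense to HOXC13, rose from 47.4 and 41.2 to 95.8 and 68.3 normalized counts (log2 0.88 ± 0.29, adjusted p = 0.0134). HOTAIR rose from 33.3 and 40.2 to 47.4 and 86.5 (log2 0.88 ± 0.31, adjusted p = 0.0189). The KD libraries of HOTAIR lay far apart, and reads of HOXC13 and its antisense RNA could not be told apart by strand.

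**Figure D3:**
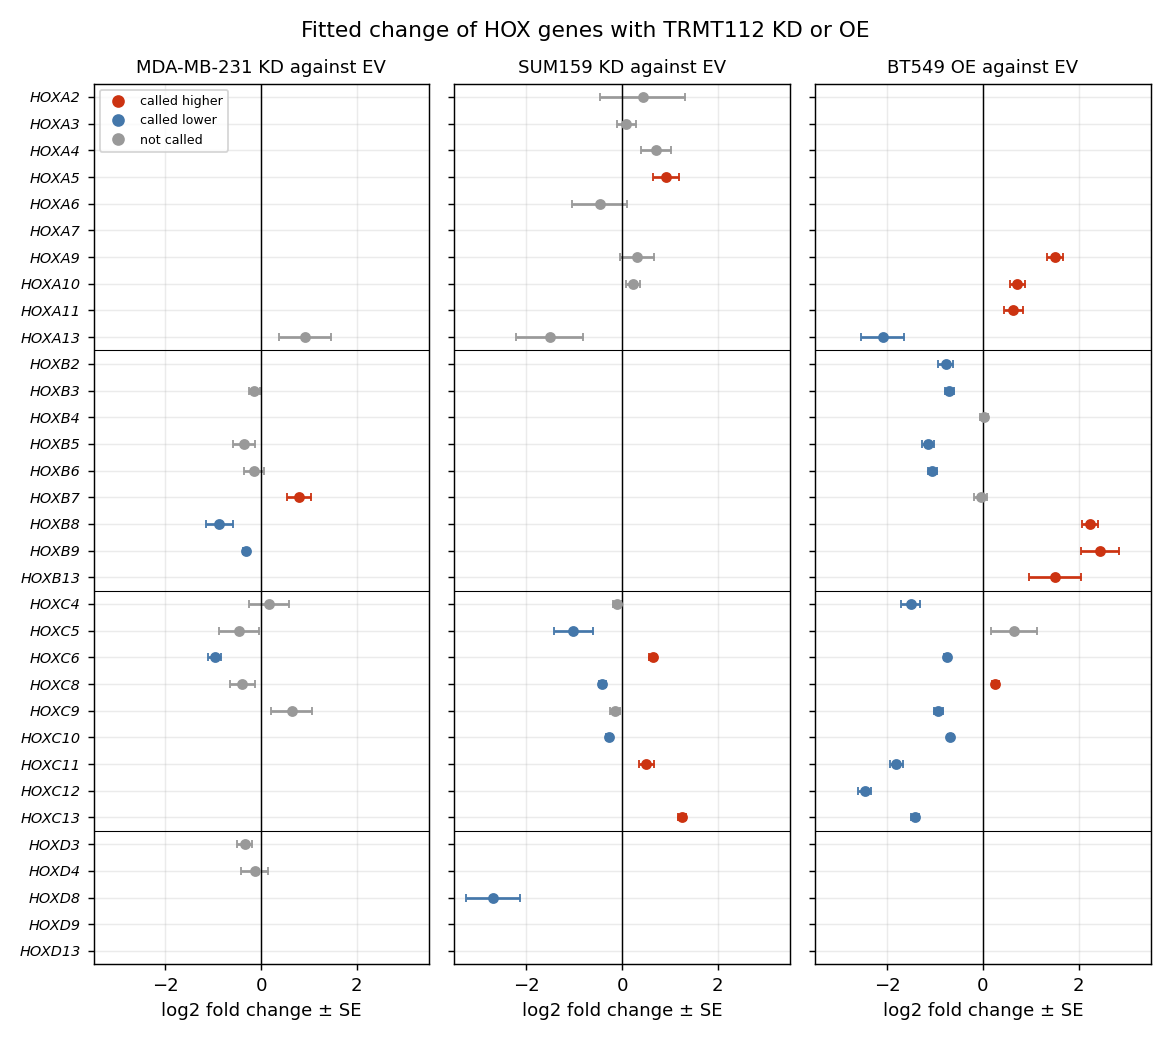
Fitted log2 fold change with its SE (horizontal axis) of HOX genes in MDA-MB-231 KD, SUM159 KD and BT549 OE against the EV libraries of the same line. Red points were called higher, blue lower and grey not called; genes with at most 3 counts in each library of either group have no point, which leaves out HOXA2 to HOXA7 in BT549.

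The KD effects of the 2 lines were compared in the same model. The difference, MDA-MB-231 minus SUM159, was called positive in 3 HOX genes and negative in 2, where 27.7% of all genes were called positive and 23.2% negative. HOXC6 was the clearest: it fell in MDA-MB-231 and rose in SUM159, with a difference of -1.61 ± 0.16 on the log2 scale (adjusted p = 1.17e-08). HOXC13 differed by -4.09 ± 1.07 (adjusted p = 0.00253), from few counts in MDA-MB-231, and was no longer called without the second MDA-MB-231 EV library (adjusted p = 0.0547). For genes absent from one of the lines the fit gave no usable error.

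In BT549 OE the HOXA genes that EV lacked were present. Each of the 6 genes from HOXA2 to HOXA7 had 0 counts in both EV libraries and between 16 and 565 counts in each OE library. HOXA7 had 625.7 and 534.3 normalized counts in OE, at least 174.6-fold more than EV (adjusted p = 2.13e-14), and became the strongest of them. HOXA5 had 214.8 and 216.2, at least 64.9-fold (adjusted p = 8.13e-12), and HOXA3 had 225.9 and 176.6, at least 60.6-fold (adjusted p = 1.75e-12). HOXA4 had 52 and 66.8, at least 17.9-fold (adjusted p = 2.24e-08). All bounds are against 3 counts in each EV library. HOXA2 and HOXA6 were called higher too, with OE means of 21.3 and 42.6. HOXA2 and HOXA7 passed the filter on low counts only through the OE libraries, so their calls are not independent of that filter. In bulk libraries more cells with an active HOXA end and more RNA per cell cannot be told apart.

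The HOXA genes that BT549 EV already used rose as well, apart from the last. HOXA9 rose from 134.7 and 167.2 normalized counts to 470.6 and 388.3 (log2 1.51 ± 0.17, adjusted p = 7.10e-08), HOXA10 from 154.4 and 143.9 to 251.4 and 241.1 (log2 0.72 ± 0.15, adjusted p = 0.000222), and HOXA11 from 163.1 and 156.1 to 256.9 and 236.6 (log2 0.63 ± 0.20, adjusted p = 0.00855). HOXA13, at the tail end, fell from 83.2 and 55.4 to 19.9 and 12.5 (log2 -2.09 ± 0.45, adjusted p = 0.000268). EV and OE libraries did not overlap in any of these 4. The HOXA11 call was lost without the second EV library (adjusted p = 0.0593) or the first OE library (adjusted p = 0.0874). HOXA as a whole went from 18.4 and 18.5 TPM in EV to 82.5 and 73.8 in OE, that is from 4.02 and 3.97% of the HOX TPM to 21.4 and 20.3%. All 11 HOXA genes were detected in OE, a set that none of the other groups had.

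**Figure D4:**
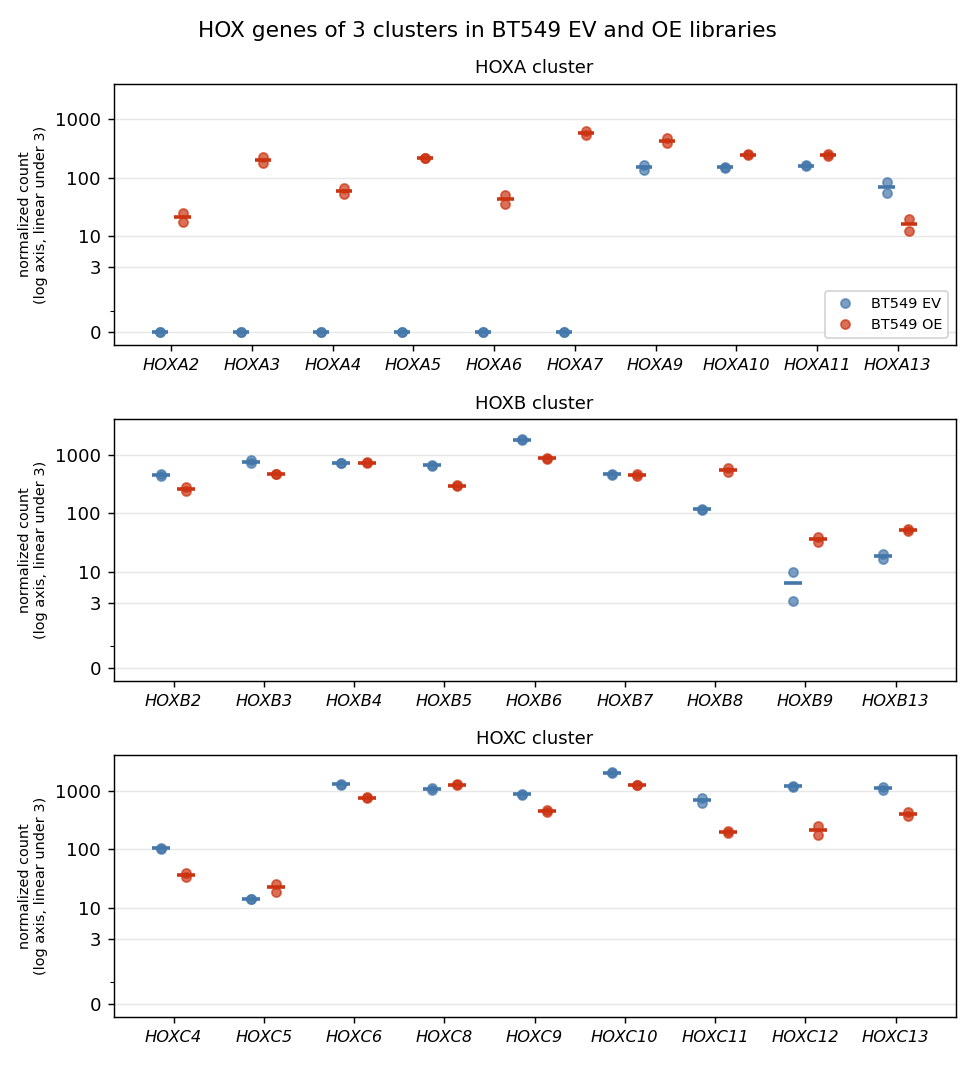
Normalized counts of the HOXA, HOXB and HOXC genes in the 2 EV (blue) and 2 OE (red) libraries of BT549, on a logarithmic axis that is linear under 3; points are libraries and bars their means. HOXA2 to HOXA7 are at 0 in EV and between 17.7 and 625.7 in OE, while the means of HOXB and HOXC genes differ by at most 5.55-fold.

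Over all clusters, 15 of 32 HOX genes were called higher and 12 lower in BT549 OE, where 35.6% of all genes were called higher and 35.0% lower. The HOX share called higher was above the background and the share called lower close to it. Those called higher include HOXA2 and HOXA7, which passed the filter only through the OE libraries. The median log2 fold change of the 32 was 0.14 with genes absent from a group set at 3 counts, and 0.02 over all genes. By cluster, HOXA had 10 higher and 1 lower of 11, HOXB 3 higher and 4 lower of 9, and HOXC 1 higher and 7 lower of 9. The summed HOX level was 458 and 466.6 TPM in EV and 386.1 and 363.1 in OE. The EV and OE profiles had a Spearman rho of 0.73 over 34 genes.

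HOXB in BT549 moved in opposite directions at its ends. The anterior HOXB2 fell from 442.4 and 465.1 to 287.9 and 241.1 normalized counts (log2 -0.78 ± 0.16, adjusted p = 0.000149) and HOXB3 from 727 and 807.2 to 474 and 469.8 (log2 -0.70 ± 0.10, adjusted p = 1.60e-06). HOXB5 fell from 652.6 and 671 to 306.8 and 289.8 (log2 -1.15 ± 0.12, adjusted p = 1.79e-08), and HOXB6 from 1824 and 1800 to 881.5 and 852.3 (log2 -1.06 ± 0.09, adjusted p = 2.07e-10). Between them HOXB4 overlapped between groups, with 717.2 and 724.2 in EV and 742 and 715.4 in OE (log2 0.02 ± 0.09, adjusted p = 0.891). HOXB7 also overlapped, with 461 and 479.5 in EV and 469.5 and 439.2 in OE (log2 -0.05 ± 0.13, adjusted p = 0.739).

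Past HOXB7 the direction turned. HOXB8 rose from 115 and 120.7 to 588 and 515 normalized counts, 4.68-fold (log2 2.23 ± 0.17, adjusted p = 9.99e-11). HOXB9 rose from 3.28 and 9.97 to 39.9 and 32.8 (log2 2.44 ± 0.40, adjusted p = 9.28e-06), still far from its level in MDA-MB-231. HOXB13 rose from 20.8 and 16.6 to 55.4 and 50.9 (2.83-fold, adjusted p = 0.0176), a call lost without any 1 of the 4 BT549 libraries (adjusted p = 0.0664, 0.124, 0.107 and 0.0761 for EV 1, EV 2, OE 1 and OE 2).

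In BT549 OE 7 of the 9 HOXC genes fell. HOXC12 fell from 1193 and 1160 to 247 and 176.6 normalized counts, 5.55-fold (log2 -2.47 ± 0.13, adjusted p = 1.72e-12), HOXC11 from 620.8 and 750.8 to 201.5 and 190.2, 3.5-fold (log2 -1.81 ± 0.13, adjusted p = 6.42e-11), and HOXC13 from 1041 and 1134 to 439.6 and 374.7, 2.67-fold (log2 -1.42 ± 0.09, adjusted p = 5.56e-13). Among the middle genes HOXC10 fell from 2061 and 2001 to 1267 and 1260 (log2 -0.68 ± 0.06, adjusted p = 4.20e-10), HOXC9 from 873.8 and 853.7 to 471.8 and 432.4 (log2 -0.93 ± 0.10, adjusted p = 6.01e-09), and HOXC6 from 1283 and 1271 to 784 and 736.9 (log2 -0.75 ± 0.07, adjusted p = 6.67e-10). The anterior HOXC4 fell from 102.9 and 105.2 to 33.2 and 39.6 (log2 -1.51 ± 0.20, adjusted p = 5.33e-07). HOXC8 was the exception: it rose from 1097 and 1032 to 1316 and 1227 (log2 0.26 ± 0.07, adjusted p = 0.00176), and in OE it was the HOX gene with the second highest TPM, behind HOXC10. HOXD8 was called higher from 0 and 2 counts to 10 and 6 (adjusted p = 0.0163), lost without the first EV library (adjusted p = 0.13) or the first OE library (adjusted p = 0.0947).

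Of the 13 noncoding cluster genes tested, 5 were called higher and 4 lower in BT549 OE, beside 35.6 and 35.0% of all genes. Those called higher all lie in HOXA, and those called lower in HOXB or HOXC. HOXA-AS3 and HOXA11-AS, among those called higher, passed the filter on low counts only through the OE libraries. HOXB-AS3, among those called lower, passed it only through the BT549 EV libraries. The calls on these genes are thus not independent of that filter. HOTAIRM1 had 0 in both EV libraries and 27.7 and 32.8 normalized counts in OE (adjusted p = 2.01e-07), and HOXA10-AS rose from 18.6 and 34.3 to 119.6 and 168.7 (log2 2.44 ± 0.30, adjusted p = 3.18e-07). In HOXC, HOTAIR fell from 418.3 and 426.3 to 295.7 and 178.8 (log2 -0.83 ± 0.20, adjusted p = 0.000974) and HOXC-AS2 from 141.2 and 135.1 to 86.4 and 70.2 (log2 -0.82 ± 0.24, adjusted p = 0.00477). HOXB-AS1, HOXC-AS1, HOXC13-AS and HAGLR were not called. SKAP2, a gene that flanks the low-numbered end of HOXA, rose from 35 and 42.1 to 316.7 and 338.4 (log2 3.08 ± 0.15, adjusted p = 9.52e-15), whereas HIBADH, beyond the HOXA13 end and chosen here after its values were seen, had 1624 and 1561 in EV and 1363 and 1419 in OE (log2 -0.20 ± 0.05, adjusted p = 0.00165). Of 18 tested genes that flank the 4 clusters, 6 were called higher and 7 lower in BT549 OE, near the 35.6 and 35.0% of all genes, with the smallest p among those lower at NFE2L1 near HOXB (8118 to 3457 on average) and among those higher at HNRNPA1 near HOXC (21696 to 35476).

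The 11 TALE homeodomain genes tested were PBX, MEIS and PKNOX genes, whose proteins bind DNA with HOX proteins, and TGIF1 and TGIF2, which encode repressors of the same class. The shares of all genes called higher and lower were 21.2 and 16.5% in MDA-MB-231 KD, 28.6 and 31.4% in SUM159 KD, and 35.6 and 35.0% in BT549 OE. In MDA-MB-231 KD 2 were called higher and 1 lower, led by MEIS3 (355.5 to 609.7 normalized counts on average, adjusted p = 2.33e-07) and TGIF2 (1571 to 1324, adjusted p = 0.000882). In SUM159 KD 3 were called higher and 3 lower of 11, near the share over all genes. PKNOX2 there went from a mean of 1491 to 5.26 (adjusted p = 2.47e-18), while PKNOX1, its close relative, rose from 694.5 to 990.9 (adjusted p = 7.30e-07). Since PKNOX2 passed the filter on low counts only through the SUM159 EV libraries, its call is not independent of that filter. In BT549 OE 5 were called higher and 5 lower, with TGIF2 rising from 541.2 to 1274 (adjusted p = 5.40e-14) and TGIF1 falling from 1493 to 585.6 (adjusted p = 7.39e-16).

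Of 28 Polycomb genes, which keep HOX genes silent, 6 were called higher and 5 lower in MDA-MB-231 KD, near the 21.2 and 16.5% of all genes. EZH2, the catalytic subunit that methylates histone H3 on a silencing lysine, fell from a mean of 406.5 to 248.1 normalized counts there (adjusted p = 6.82e-07). In SUM159 KD 12 were called higher and 10 lower, beside 28.6 and 31.4% of all genes, with RBBP7 falling from 5834 to 3727 (adjusted p = 2.20e-13) and CBX6 rising from 3871 to 5280 (adjusted p = 6.64e-11). In BT549 OE 7 were called higher and 14 lower, beside 35.6 and 35.0%: PHF19 fell from 7897 to 2967 (adjusted p = 1.14e-20), PHF1 from 3148 to 1425 (adjusted p = 2.70e-16), and BMI1 rose from 2627 to 5164 (adjusted p = 4.07e-15). The median log2 fold change of the 28 was 0.02, 0.05 and -0.10 in MDA-MB-231 KD, SUM159 KD and BT549 OE, beside 0.00, 0.00 and 0.02 over all genes.

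Of 23 Trithorax and histone demethylase genes, which keep HOX genes active, 4 were called higher and 7 lower in MDA-MB-231 KD, 3 higher and 13 lower in SUM159 KD, and 5 higher and 16 lower in BT549 OE. Over all genes 21.2 and 16.5%, 28.6 and 31.4%, and 35.6 and 35.0% were called. Their median log2 fold change was -0.06, -0.23 and -0.32, beside 0.00, 0.00 and 0.02 over all genes. In SUM159 KD PSIP1, which tethers such complexes to chromatin, fell from a mean of 1922 to 906.5 (adjusted p = 8.61e-15), and KMT2C rose from 548.4 to 932.5 (adjusted p = 5.62e-09). In BT549 OE MLLT3, a part of the elongation complex at active HOX genes in leukaemia, fell from 425 to 8.99 (adjusted p = 3.33e-15), and DPY30 rose from 537.5 to 1047 (adjusted p = 5.00e-12).

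Retinoic acid is the classical inducer of anterior HOX genes, and 15 genes of its pathway, with CDX genes and further HOX inducers, were tested. In BT549 OE 7 were called higher and 7 lower, beside 35.6 and 35.0% of all genes. FGFR1 rose from a mean of 8886 to 28885 normalized counts (adjusted p = 1.58e-23), and CRABP2, which carries retinoic acid to its receptors, from 63.3 to 1217 (adjusted p = 2.37e-19). ALDH1A3, which makes retinoic acid, fell from 2659 to 232.1 (adjusted p = 2.93e-21), and CYP26B1, which breaks it down, from 1344 to 216.5 (adjusted p = 1.51e-18). In MDA-MB-231 KD 6 were called higher and 2 lower, and in SUM159 KD 5 and 5, beside 21.2 and 16.5% and 28.6 and 31.4% of all genes. Of 37 other homeobox genes tested, 5 were called higher and 1 lower in MDA-MB-231 KD, 8 and 10 in SUM159 KD, and 15 and 15 in BT549 OE, where PITX1 rose from 3125 to 8464 (adjusted p = 3.52e-20). The counts of the other homeobox genes lay near or under the same shares of all genes, apart from BT549 OE, where they lay a little above. These lists were described by counts and medians only, and their part in the HOX changes was not tested.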

How the data were processed

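RNA from polysome fractions of 12 libraries, 2 in each of 6 groups, had been sequenced by the study. The authors deposited expected counts per transcript, not normalized, for which the labels name Trimmomatic, HISAT2, SAMtools, Partek and GRCh38; the counter's settings, annotation and strand setting are not given in the sources used here. In the MDA-MB-231 and SUM159 columns 5.08% of 201932 transcripts carry a question mark in place of an expected count, taken here as 0. Transcripts were matched to GENCODE by identifier (79.6% matched, the rest held 0.588 to 0.755% of counts), summed per symbol, rounded, filtered with filterByExpr and scaled with TMM. All 12 libraries were fitted together in edgeR 4.0.16 (quasi-likelihood test, 6 residual degrees of freedom, R 4.3.3), with Benjamini-Hochberg adjusted p under 0.05 as the call. TPM was computed from transcript lengths. Folds against a group at 0 are lower bounds against 3 counts per library, and such bounds cover counting error only. In data simulated from 16538 genes, 200 genes were changed per comparison, some by a log2 of 1 and some by less. Of those changed by 1, 99% were recovered in MDA-MB-231 KD, 99% in SUM159 KD and 100% in BT549 OE. Of those changed by less, 85, 83 and 90% were recovered, and 6.12, 3.19 and 4.52% of calls were false. Changed genes had a mean of at least 50 counts, so recovery at fewer counts was not tested. Members with a mean of at least 50 normalized counts in any group are named with their values, and of other lists up to 2 called genes in each direction with the smallest p. HOX members and lists were chosen with earlier results of these data known. Alternatives were RLE or library size scaling, other count filters, DESeq2 1.42.0, a replicate block, each cell line alone, protein-coding transcripts, marked transcripts left out, and each library left out. Some genes of these lists are not reported here.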

Additional observations from a re-analysis of the deposited data

Results flagged for a closer look

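The effect of TRMT112 knockdown differed between MDA-MB-231 and SUM159 for 5 HOX genes in a test of the difference itself, the interaction term of the edgeR fit. HOXC6 had a difference (MDA-MB-231 minus SUM159) of -1.61 ± 0.16 on the log2 scale, adjusted p = 1.17e-08, and was lower in both MDA-MB-231 KD libraries and higher in both SUM159 KD libraries than in EV. HOXC13 had -4.09 ± 1.07, adjusted p = 0.00253, on 0 to 6 counts in MDA-MB-231, and was not called without the second MDA-MB-231 EV library (adjusted p = 0.0547). HOXB7 had 2.81 ± 0.82, adjusted p = 0.00619, on 0 to 7 counts in SUM159, and was at the threshold, not under it, without the first SUM159 EV library (adjusted p = 0.05). HOXA13 had 2.42 ± 0.88, adjusted p = 0.025, on 3 to 18 counts per library in these lines, and was not called without the second MDA-MB-231 EV (adjusted p = 0.0709), second MDA-MB-231 KD (adjusted p = 0.0531), second SUM159 EV (adjusted p = 0.185) or second SUM159 KD library (adjusted p = 0.0963). HOXB13 had a fitted 7.77 ± 3.20, adjusted p = 0.049, which depends on the prior count since MDA-MB-231 had 0 or 1 count per library. It was kept without the first MDA-MB-231 KD or the second SUM159 EV library, and lost without any 1 of the other 10, the BT549 libraries included (adjusted p from 0.0557 to 1).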

How the results depend on the processing

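Counts of called HOX genes were recomputed for the 7 comparisons in each direction, 14 results, of which 6 stayed within 1.5 times under every alternative, and none reversed. With a mean of at least 50 counts required, which tests fewer genes, the count lower was 2 in BT549 EV against MDA-MB-231 EV (4 as reported), 4 in BT549 EV against SUM159 EV (10) and 4 in SUM159 KD (7), and the count higher was 9 in BT549 OE (15) and 1 for the difference of KD effects (3). With protein-coding transcripts only, or with the cell line fitted alone, 0 HOX genes were called higher in MDA-MB-231 KD (2), and with the line alone 4 were lower in SUM159 KD (7); the cause was not tested. Leaving out 1 library gave 0 to 2 higher and 2 to 4 lower in MDA-MB-231 KD, and 1 to 4 higher and 1 to 2 lower for the difference of KD effects. With a replicate block, 2 were higher and 3 lower in MDA-MB-231 KD, 4 and 7 in SUM159 KD, 15 and 12 in BT549 OE, and 2 and 2 for the difference. Libraries share only a number, since the deviations of same-numbered libraries had correlations of 0.003, -0.03 and 0.016 in the 3 lines. With 2 libraries per group, how large a change must be for detection in HOX genes with few counts was not tested.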
